A study of Homo sapiens with 8 samples.

Results

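The genes described here encode the eukaryotic translation initiation factors (eIFs), measured in a lymphoma line exposed to a BET bromodomain inhibitor. Members were the genes whose symbol in the array annotation begins with EIF and a digit, without the EIF2AK kinases, the EIF4E-binding proteins and pseudogenes. This gave 48 of the 20046 genes with a probe, and each gene was read from its brightest probe over the 8 arrays. Of the 48, 45 were above background on at least 4 of the 8 arrays. EIF3J-DT, a non-coding transcript next to EIF3J, EIF4E3 and EIF5AL1 were above background on 0 arrays and were not tested. EIF1AY, a gene of the Y chromosome, is not described, which leaves 44 genes. EIF4ENIF1, which carries the cap-binding protein into the nucleus, and EIF1AD came in by their symbols and are not initiation factors in the strict sense. The roles given below for EIF4A3, EIF5A and EIF6 also lie outside initiation in the strict sense.

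DOHH2, a human line established from a B-cell lymphoma of follicular origin, was grown in vitro with BAY1238097, a BET bromodomain inhibitor, or with DMSO, the vehicle, for 4, 8, 12 or 24 h. Each treatment and time had 1 Illumina bead array, so each treatment group held 4 arrays, and single times had no repeat. The sources used here give neither the dose nor whether the arrays came from separate cultures. The p-values therefore reflect only variation within 1 line. They and the standard errors rest on how the treatment difference varied over times, with the spread of each gene moderated in limma towards that of all genes. This variation may be partly technical, and the number of arrays limits the precision.

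Initiation factors bring the small ribosomal subunit and the initiator tRNA to the start codon of a messenger RNA. eIF2 carries the initiator tRNA and eIF2B reloads it with GTP; eIF3 is the large scaffold on the small subunit; the eIF4 proteins bind the cap and unwind the leader; eIF1, eIF1A, eIF5 and eIF5B control start-codon choice and subunit joining. Several of their genes are known targets of the transcription factor MYC, whose own expression depends on BET proteins in many lymphomas.

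Values are log2 intensities after quantile normalization, and a treatment effect is the log2 difference of BAY1238097 minus DMSO at matched times from limma. The B-cell markers CD79A, CD79B and BLK were above background on all 8 arrays, MS4A1 on 6 and CD22 on 5. PAX5, and the germinal centre factor BCL6, were above background on 0 arrays, whereas the germinal centre markers MME and CD38 were on all 8. None of the T-cell, epithelial or fibroblast markers listed was above background on 4 arrays, while the myeloid markers CD14 and FCGR3A were so on 4 and 8, with summed intensities of the myeloid list of 429 to 458 in DMSO and 434 to 443 with BAY1238097. The B-cell markers summed to 4178.5 to 6672.5 in DMSO and 3133 to 4899 with BAY1238097, with 2 of the 5 tested lower. The germinal centre list summed to 2055 to 2855 in DMSO and 2182 to 3823 with BAY1238097, with 1 of the 2 tested higher. The part of these markers in the results was not tested. Mean probe intensity ran from 262 to 419 per array and was lowest at 4 h in both groups. The treated arrays were also dimmer. Before normalization the median difference of the 44 genes was 0.017 at 4 h and -0.45, -0.44 and -0.50 at 8, 12 and 24 h, against mean differences over all named probes above background of -0.012, -0.29, -0.26 and -0.34. The part of brightness in the results below was not tested.

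The first comparison asked which initiation factor genes differed between inhibitor and vehicle. Their changes were small, and few passed the test. EIF2S2, EIF3B, EIF3J, EIF4A1 and EIF4G1 fell, by 0.29 to 0.38 on the log2 scale, and EIF3H, EIF4G2 and EIF5A2 rose, by 0.24 to 0.25. That is 8 of 44 genes, or 18.2%, at a limma adjusted p under 0.05, against 30.3% of the 10445 genes tested. In the separate directions 3 members were higher, against 15.5% of all genes, and 5 were lower, against 14.8%. No member had an effect of at least 0.5 in either direction, which 10.7% of all genes had, and the median absolute effect was 0.12 against 0.16 over all genes. The effects of 33 of the 44 members were below 0 (75.0%), against 47.8% of all genes, with medians of -0.086 and 0.0099. Members of 1 complex or 1 set of arrays are not independent, so these shares are descriptions.

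The calls depended on single time points. Without the 8 h arrays, and likewise without the 12 h arrays, limma called 0 of the 44 genes. At an unadjusted p under 0.05 there were 3 higher and 6 lower genes without 8 h and 3 and 4 without 12 h, and the share called over all genes fell to 12.2% and 12.4%. Without the 24 h arrays EIF2S2, EIF3B and EIF3J remained lower and EIF4A3 passed as higher, with 23.3% of all genes called. Without the 4 h arrays 12 members were lower and 3 higher, while the share called over all genes rose to 39.5%. There 7 of the 8 calls were shared, the exception being EIF4G2. The direction also depended on scaling: median scaling in place of quantile normalization gave 0 higher and 14 lower members, beside 806 higher and 2426 lower genes over the whole array. That scaling moved the median of all genes by -0.12, -0.10 and -0.13 at 8, 12 and 24 h, and the median effect of the members relative to that of all genes was -0.16 under it, against -0.096 in the values reported here.

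**Figure D1:**
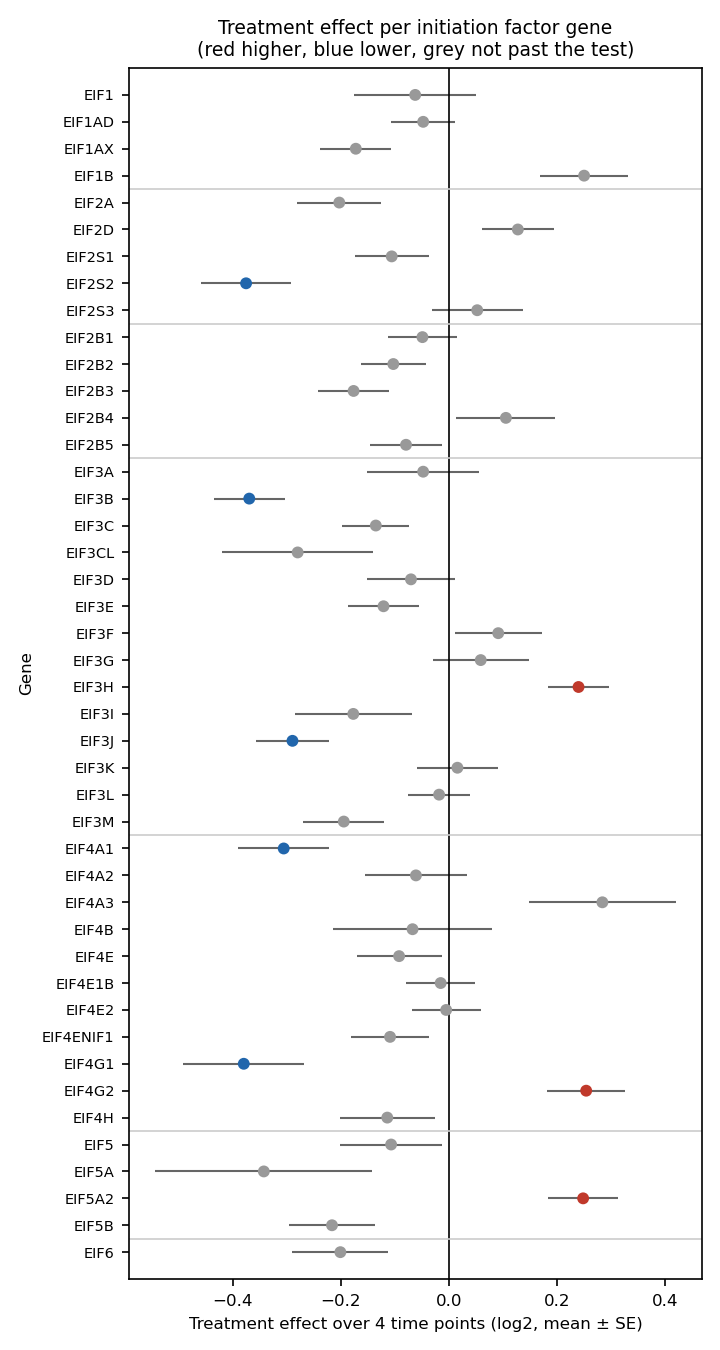
Treatment effect of each of the 44 initiation factor genes, as the log2 difference of BAY1238097 minus DMSO over 4 time points (point) with its standard error (bar), grouped by factor from EIF1 to EIF6. All effects lie between -0.38 and 0.28; the 3 red points passed the test as higher and the 5 blue points as lower.

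Of the genes for start-codon selection, 0 of 4 passed in limma, against 30.3% of all genes, with EIF1AX and EIF1B at an unadjusted p under 0.05. Of the 4 effects 3 lay below 0, and their median was -0.055. EIF1, which keeps the scanning complex open until a start codon is met, had log2 values of 11.77, 11.60, 11.56 and 11.50 in DMSO at 4, 8, 12 and 24 h and of 12.11, 11.36, 11.25 and 11.46 with the inhibitor. The treated array was the higher at 4 h and the lower afterwards, and the effect was -0.06 ± 0.11 (SE, 4 time points; adjusted p = 0.715). Its close relative EIF1B read 10.03, 9.64, 9.93 and 9.94 in DMSO and 10.03, 9.96, 10.19 and 10.36 with the inhibitor. EIF1B was higher at 4 of 4 times but missed the threshold (0.25 ± 0.08, adjusted p = 0.0601, 95% interval 0.054 to 0.45). EIF1AX, which encodes eIF1A, read 9.57, 9.11, 8.73 and 8.79 in DMSO and 9.51, 8.99, 8.52 and 8.49 with the inhibitor, so that both groups ran downwards from 4 h and the treated array was the lower at 4 of 4 times (-0.17 ± 0.07, adjusted p = 0.0921). Its probe may also bind the near-identical EIF1AY transcript. Whether EIF1 and EIF1B differed in response was not tested. EIF1AD was above background on 3 DMSO arrays and 1 BAY1238097 array, and its values stayed between 6.68 and 6.84.

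Among the eIF2 genes 1 of 5 passed, against 30.3% of all genes. Differences between the subunits were not tested. EIF2S2, the beta subunit, read 7.10, 7.33, 7.50 and 7.41 in DMSO and 6.98, 6.91, 6.95 and 7.003 with the inhibitor. The 2 groups of arrays did not overlap, as was so for 9.56% of all genes in this direction. EIF2S2 fell by 0.38 ± 0.08 (1.30-fold lower, adjusted p = 0.0170). It is a dim probe close to background, which compresses log2 changes, and its effect was -0.84 after background correction and -0.95 with median scaling added. The alpha subunit EIF2S1, whose phosphorylation halts initiation under stress, had an effect of -0.11 ± 0.07 and the gamma subunit EIF2S3, which holds GTP and the tRNA, one of 0.05 ± 0.08, and neither passed (adjusted p = 0.292 and 0.679). Their 95% intervals were -0.27 to 0.059 and -0.15 to 0.25. EIF2A and EIF2D, which can deliver initiator tRNA without eIF2, were at -0.20 ± 0.08 and 0.13 ± 0.07, and did not pass either.

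The 5 genes of eIF2B, the exchange factor that reactivates eIF2, had the narrowest range of the factors with several genes, with effects between -0.18 (EIF2B3) and 0.11 (EIF2B4). None passed in limma, against 30.3% of all genes, and EIF2B3 had an unadjusted p under 0.05. The median effect was -0.080, and 4 of 5 effects were below 0. At 12 h all 5 genes were lower on the treated array, by 0.083 to 0.21, whereas at 4 h 2 were higher and 3 lower. EIF2B3 was lower at 4 of 4 times (-0.18 ± 0.07, adjusted p = 0.0896), as was EIF2B2 (-0.10 ± 0.06, adjusted p = 0.239). The second probe of EIF2B4 gave an effect of 0.16 ± 0.06, the same direction as its brightest.

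eIF3 was measured through 14 genes, of which 1 rose and 2 fell (21.4% called, against 30.3% of all genes). EIF3B, the subunit with the RNA-recognition motif on which the b, g and i module is built, read 13.14, 12.87, 12.43 and 12.44 in DMSO and 12.87, 12.37, 12.03 and 12.13 with the inhibitor. Both groups ran downwards from 4 to 12 h, which makes the groups overlap, but the treated array was the lower at each time. EIF3B fell by 0.37 ± 0.07 (1.29-fold lower, adjusted p = 0.00867). Its other probes above background had effects of -0.24 and -0.31 and did not pass in a fit across all probes (adjusted p = 0.167 and 0.117); at 4 h both were higher on the treated array, by 0.21 and 0.16, and later both were lower by 0.27 to 0.61. With the mean of its probes in place of the brightest, the effect of EIF3B was -0.31 and just missed the threshold (adjusted p = 0.0526), and a model without time gave an adjusted p of 0.305.

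EIF3J, the loosely bound subunit near the decoding site, read 9.81, 9.76, 9.68 and 9.55 in DMSO and 9.65, 9.34, 9.34 and 9.31 with the inhibitor. The only treated array above any DMSO array was that of 4 h. EIF3J fell by 0.29 ± 0.07 (adjusted p = 0.0204), and its adjusted p ranged from 0.00223 to 0.105 over the alternatives. Its effect was -0.49 under median scaling and also with background correction added. EIF3H, a subunit of the octamer, read 11.09, 11.06, 11.17 and 11.28 in DMSO and 11.33, 11.28, 11.43 and 11.53 with the inhibitor. The difference lay between 0.22 and 0.26 at each time, the steadiest of the 8 called genes, and it rose by 0.24 ± 0.06 (1.18-fold, adjusted p = 0.0203). That call was lost under median scaling and under background correction with either scaling (largest adjusted p = 0.653), and the effect was 0.046 under median scaling alone.

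The other 11 eIF3 genes did not pass. Taken by structural place, the 8 genes of the octamer had a median effect of -0.033 and EIF3B, EIF3G and EIF3I one of -0.18. EIF3I, a WD-repeat subunit, read 10.80, 11.06, 11.34 and 11.51 in DMSO and 10.95, 10.96, 11.10 and 10.99 with the inhibitor, so the arrays parted with time, with differences of 0.15, -0.10, -0.23 and -0.52 in turn. EIF3G, an RNA-binding subunit, stood 0.36 higher at 4 h and within 0.073 of DMSO later. EIF3A, the largest subunit of the scaffold, ran the opposite way, from -0.30 at 4 h to 0.24 at 24 h. The subunits EIF3D, EIF3E, EIF3F, EIF3K, EIF3L and EIF3M had effects between -0.19 (EIF3M) and 0.091 (EIF3F). The second probe of EIF3M passed in the fit across all probes (-0.26 ± 0.07, adjusted p = 0.0343). EIF3C and EIF3CL are near-identical copies whose transcripts 1 probe may share, and their effects were -0.14 ± 0.06 and -0.28 ± 0.14.

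The eIF4 genes held 1 rise and 2 falls among 11 (27.3% called, against 30.3% of all genes). Differences between paralogues were not tested. EIF4G1, the scaffold that joins the cap-binding protein to eIF3, read 9.65, 9.88, 9.91 and 9.81 in DMSO and 9.70, 9.38, 9.31 and 9.34 with the inhibitor. At 4 h the arrays differed by 0.045, and from 8 h the treated arrays lay below every DMSO array. EIF4G1 fell by 0.38 ± 0.11 (1.30-fold lower, adjusted p = 0.0441), the effect farthest below 0 of the 44 genes. Its second probe gave -0.33 ± 0.11 with the same time course (0.022, -0.64, -0.34 and -0.37, adjusted p = 0.0591). The call was lost after background correction with quantile normalization and without a filter on dim probes, with adjusted p values from 0.00134 to 0.180 over the alternatives, and its effect was -0.57 after background correction with median scaling.

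EIF4G2, also known as DAP5, lacks the end of EIF4G1 that holds the cap-binding protein, and serves cap-independent initiation. It read 12.41, 12.38, 12.35 and 12.22 in DMSO and 12.80, 12.49, 12.50 and 12.58 with the inhibitor. All treated arrays lay above all DMSO arrays, as was so for 10.4% of all genes. EIF4G2 rose by 0.25 ± 0.07 (1.19-fold, adjusted p = 0.0398), and its other probes had effects of 0.30 ± 0.09 and 0.076 ± 0.11. Leaving out any 1 time point ended the call (adjusted p from 0.0645 to 0.124), as did median scaling and background correction. No gene-to-gene test of EIF4G1 against EIF4G2 was made.

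EIF4A1, the main helicase of the cap complex, read 13.00, 13.50, 13.63 and 13.25 in DMSO and 12.92, 13.12, 13.11 and 12.99 with the inhibitor. The groups overlapped only through the low DMSO array of 4 h, and EIF4A1 fell by 0.31 ± 0.08 (1.24-fold lower, adjusted p = 0.0345). Its second probe went the other way at each time, by 0.090, 0.21, 0.027 and 0.37 (0.18 ± 0.08, adjusted p = 0.126), and with the mean of both probes the effect was -0.065 (adjusted p = 0.516). Median scaling (-0.18), background correction (-0.31) and both together (-0.13) also ended the call. The 2 probes of this gene therefore disagree in direction. Its paralogue EIF4A2 read 12.69, 12.80, 12.73 and 12.50 in DMSO and 12.76, 12.57, 12.45 and 12.69 with the inhibitor, with the sign changing between times (-0.06 ± 0.10, adjusted p = 0.668).

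EIF4A3, the relative that belongs to the exon junction complex, showed the clearest change with time. It read 10.70, 11.13, 11.15 and 11.17 in DMSO and 11.40, 11.48, 11.42 and 10.97 with the inhibitor. The treated arrays were higher by 0.70, 0.35 and 0.27 at 4, 8 and 12 h and lower by 0.19 at 24 h. Its mean effect did not pass (0.28 ± 0.14, adjusted p = 0.163), but the difference changed by -0.34 ± 0.06 for each doubling of time, with an adjusted p of 0.0394.

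The cap-binding protein EIF4E read 8.12, 7.56, 7.23 and 7.21 in DMSO and 7.82, 7.63, 7.23 and 7.08 with the inhibitor. The arrays were spread more over time than between treatments, and the effect was -0.09 ± 0.08 (adjusted p = 0.422, 95% interval -0.28 to 0.096). Its second probe above background had -0.26 ± 0.08 (adjusted p = 0.0619). EIF4E2, a cap-binding repressor, read 9.99, 10.24, 10.24 and 10.30 in DMSO and 9.98, 10.26, 10.34 and 10.17 with the inhibitor, within 0.13 of each other at each time (-0.01 ± 0.06, 95% interval -0.16 to 0.15). The helicase cofactor EIF4B was 0.53 higher at 4 h and 0.18 to 0.37 lower later, and its partner EIF4H was 0.095 higher at 4 h and 0.31 lower at 24 h. EIF4E1B, a germ-line form, stayed between 6.68 and 6.90, and was above background on 4 DMSO and 3 BAY1238097 arrays. EIF4ENIF1 had an effect of -0.11 ± 0.07.

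**Figure D2:**
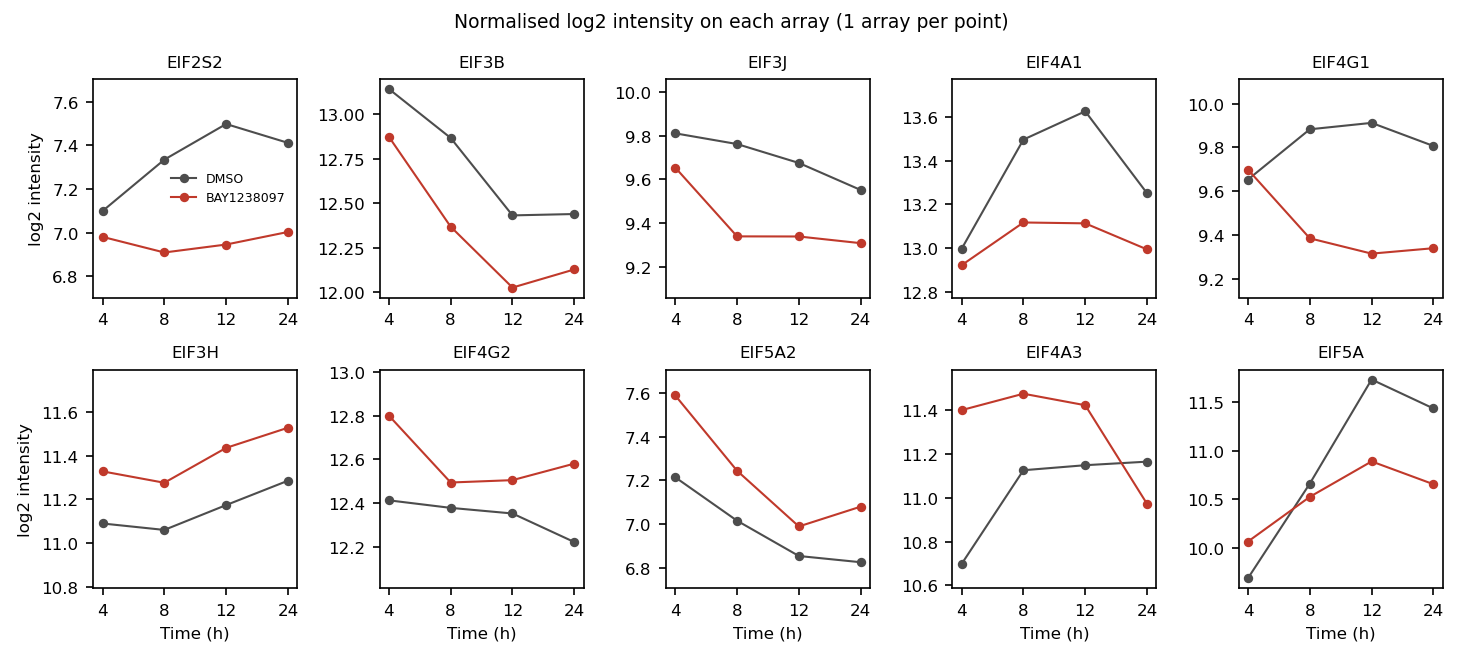
Normalised log2 intensity of the 8 called genes, EIF4A3 and EIF5A on each array, against time of exposure (4, 8, 12 and 24 h, evenly spaced), with DMSO in grey and BAY1238097 in red; each point is 1 array and there are no repeats, and the axes differ between genes. EIF2S2 and EIF4G2 have no overlap between groups, and the lines of EIF4A3 and EIF5A cross.

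The promoters of these genes were read for CACGTG, the E-box that MYC and its partner MAX bind. A promoter here is the 250 bases before and 50 after the RefSeq start, on GRCh38.p14; CACGTG is its own reverse complement, so the scan covers both strands, and no other motif was searched. Of the 44 genes 37 matched a promoter, and 10 of these (27.0%) held at least 1 CACGTG in any of their promoters. Counted by gene in the same way, 8.77% of all 27305 genes with a promoter did, and 10.9% of the 15034 with a probe and a promoter. Unlike the members, those genes were not required to be above background. The share among the genes tested was not computed, so whether the members differ from these was not tested. By call, it stood before 1 of the 4 falling genes with a promoter, EIF4G1, 1 of the 2 rising ones, EIF5A2, and 8 of the 31 that did not pass, too few genes to compare. The other 8 were EIF1B, EIF2B3, EIF3F, EIF3K, EIF4A3, EIF4B, EIF4E and EIF4H. A match is a description of the letters and not a bound site. Shown are the stretches around the motif (in capitals) for both called genes and for EIF4A3, EIF4B and EIF4E. They run 5′ to 3′ on the strand of the gene. The stretches of the other genes, EIF4H among them, are not shown.
EIF4G1, chr3:184314442-184314564, plus strand, with motifs starting 144 and 67 bases before the start: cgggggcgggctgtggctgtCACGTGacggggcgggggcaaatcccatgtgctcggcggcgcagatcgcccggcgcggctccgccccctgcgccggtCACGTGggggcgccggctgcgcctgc
EIF5A2, chr3:170908774-170908844, minus strand, 187 and 162 bases before the start: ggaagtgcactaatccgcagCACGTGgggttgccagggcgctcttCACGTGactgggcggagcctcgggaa
EIF4A3, chr17:80147224-80147269, minus strand, 121 bases before the start: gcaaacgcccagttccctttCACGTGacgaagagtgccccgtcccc
EIF4B, chr12:53006414-53006455, plus strand, 22 bases before the start: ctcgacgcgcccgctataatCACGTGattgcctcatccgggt
EIF4E, chr4:98929180-98929378, minus strand, 225 and 72 bases before the start: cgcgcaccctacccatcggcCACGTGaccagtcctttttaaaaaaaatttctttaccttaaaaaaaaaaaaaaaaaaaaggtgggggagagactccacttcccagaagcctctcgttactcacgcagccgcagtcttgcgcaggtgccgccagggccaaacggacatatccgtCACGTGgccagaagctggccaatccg
EIF4G1, EIF5A2 and EIF4E carried the motif as a pair and the other genes once. EIF4G1 has further RefSeq starts whose promoters hold none.

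Of the eIF5 genes 1 of 4 passed, against 30.3% of all genes. EIF5A, the hypusine-bearing factor that helps the ribosome through difficult peptide bonds, had the widest range of values, reading 9.70, 10.66, 11.73 and 11.43 in DMSO and 10.07, 10.53, 10.89 and 10.66 with the inhibitor. The treated array was 0.37 higher at 4 h and 0.14, 0.84 and 0.77 lower at 8, 12 and 24 h. Neither its mean effect (-0.34 ± 0.20, adjusted p = 0.245) nor its change with time (-0.48 ± 0.10 per doubling, adjusted p = 0.0543) passed, although without the 4 h arrays it was called lower. Its probe may also bind transcripts of the near-identical EIF5AL1. The paralogue EIF5A2 read 7.21, 7.02, 6.85 and 6.83 in DMSO and 7.59, 7.24, 6.99 and 7.08 with the inhibitor. EIF5A2 was higher at 4 of 4 times and rose by 0.25 ± 0.06 (1.19-fold, adjusted p = 0.0293), on a dim probe. The effect was 0.57 after background correction (adjusted p = 0.00721) and 0.52 with median scaling added (0.0110), whereas median scaling alone ended the call (0.20, adjusted p = 0.0582), as did a model without time (0.292). EIF5, which activates the GTPase of eIF2, stood 0.19 higher at 4 h and 0.37 lower at 24 h. EIF5B, which joins the subunits, was lower at 4 of 4 times (-0.22 ± 0.08, adjusted p = 0.0865). EIF6, which keeps the large subunit apart and acts in its maturation, had an effect of -0.20 ± 0.09 (adjusted p = 0.135).

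The second comparison was the difference at each time, for which 1 array a treatment allows no test. At 4 h the members lay around the vehicle level, with a median difference of 0.042 and 24 of 44 above 0. At 8, 12 and 24 h the medians were -0.11, -0.17 and -0.12, with 32, 32 and 30 genes below 0. Over all genes the medians were 0.013, 0.010, 0.0042 and 0.0042. Of all genes 52.3% were above 0 at 4 h, and 48.1%, 49.1% and 49.4% were below 0 at 8, 12 and 24 h. At 4 h 7 members were higher by more than 0.32 on the log2 scale and 0 lower by as much, against 13.6% and 12.8% of all genes. The 7 were EIF4A3, EIF4B, EIF4G2, EIF5A2, EIF5A, EIF3G and EIF1. At 8 h 1 was higher and 6 lower (14.1% and 15.2% of all genes), at 12 h 0 and 10 (14.5% and 14.6%), and at 24 h 3 and 7 (16.9% and 16.8%). EIF5A and EIF3CL were the lowest at 24 h, at -0.77 and -0.73.

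Among factors with several genes, grouped by symbol, those of eIF5 had the largest swing of the medians, from 0.28 at 4 h to -0.31 at 24 h. The eIF3 median moved from 0.0068 at 4 h to -0.18 at 12 h and -0.079 at 24 h, and that of eIF4 from 0.075 to -0.14. The eIF2 median was -0.084 at 4 h, -0.17 at 12 h and 0.062 at 24 h. Members with the same sign at all 4 times numbered 4 higher and 12 lower, against 24.4% and 22.4% of all genes. EIF1, EIF2B1, EIF3D, EIF3I, EIF4B, EIF4G1, EIF5, EIF5A and EIF6 were higher at 4 h and lower at each later time. These are 9 of 44 genes (20.5%), against 9.15% of all genes, and 0 members had the opposite course, against 9.02%. Measured from the median of all genes at each time, the counts were 10 and 1, against 9.12% and 9.37% of all genes. Under median scaling they were 13 and 2, against 9.56% and 10.1%. Each of these differences at 4 h uses the same 2 arrays.

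**Figure D3:**
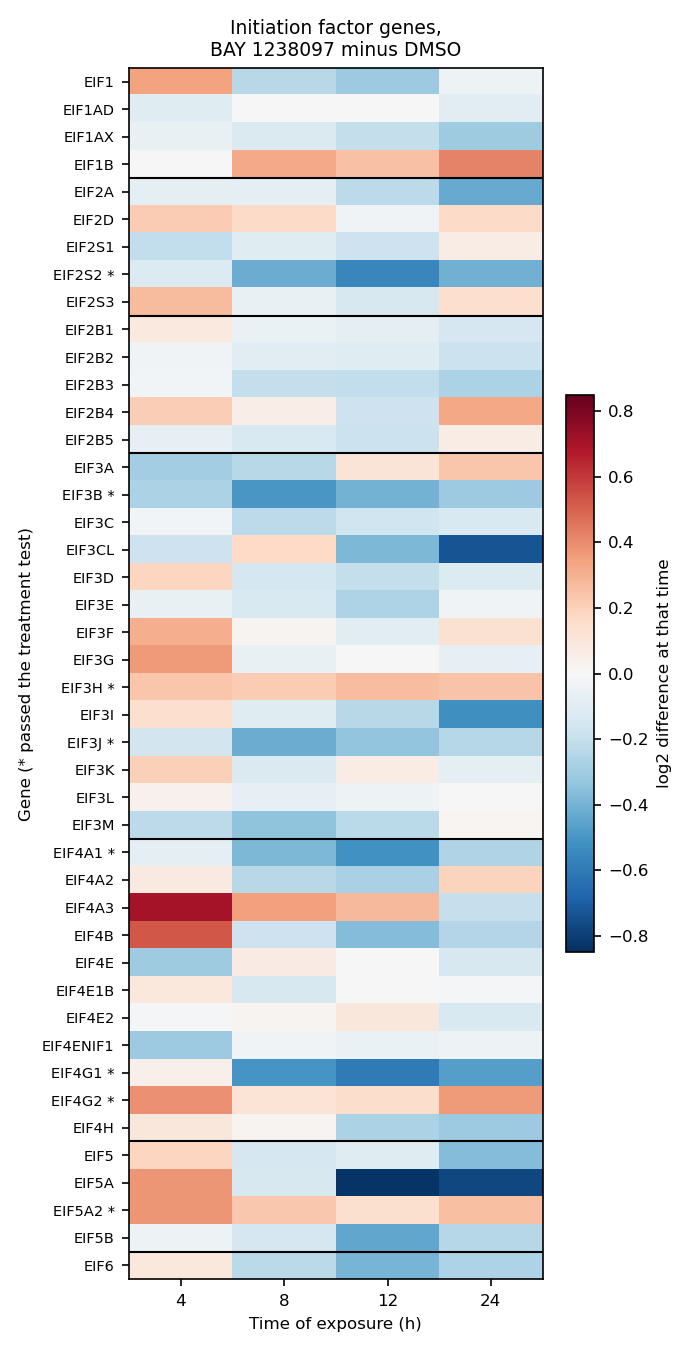
Log2 difference of BAY1238097 minus DMSO for each of the 44 genes (rows, by factor) at each time (columns), with red for higher and blue for lower on the treated array; asterisks mark the 8 genes past the treatment test. The 7 largest differences at 4 h are all red, whereas at 12 h 32 of 44 rows are blue.

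**Figure D4:**
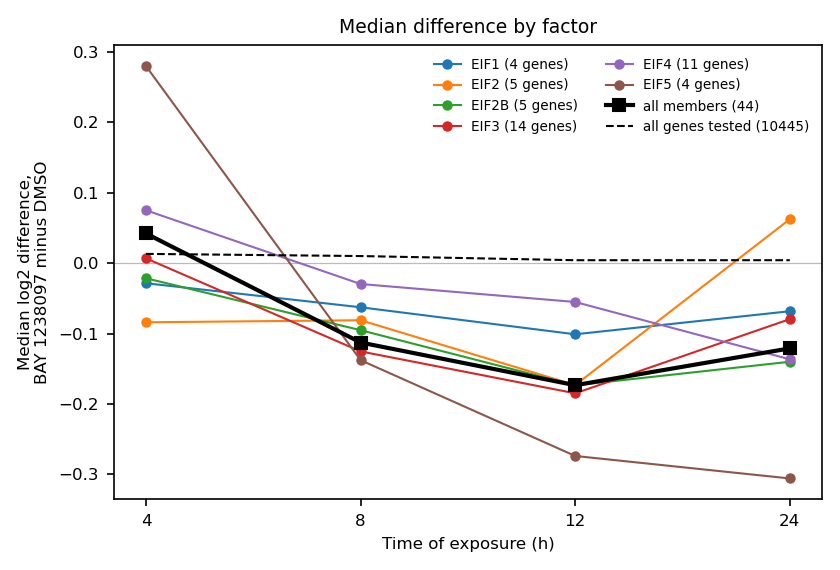
Median log2 difference of BAY1238097 minus DMSO at each time for the genes of each factor (coloured lines), for all 44 members (thick black line) and for all 10445 genes tested (dashed line); EIF6 is a single gene and is not drawn. The members' median is 0.042 at 4 h and between -0.11 and -0.17 later, while that of all genes stays within 0.013 of 0.

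When the change of the difference with time was tested, 1 member passed, EIF4A3, against 3.51% of all genes in either direction and 1.69% falling with time. The coefficients of 32 of 44 members were below 0 (72.7%), against 51.4% of all genes, and the median was -0.055 per doubling of time. EIF3I (-0.26 ± 0.06, adjusted p = 0.0621) and EIF5A came next and did not pass. EIF4A3 kept its call under median scaling. It lost the call after background correction (adjusted p = 0.110), a setting in which 0 of all genes passed. It also lost it without the 12 h arrays (0.0628) and without the 24 h arrays (0.0938), where 1.5% and 12.5% of all genes were called.

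In the vehicle alone several factors moved over the day of culture. EIF5A rose by 0.73 ± 0.17 per doubling of time (adjusted p = 0.0439), EIF3G by 0.30 ± 0.07 (0.0445) and EIF3I by 0.28 ± 0.05 (0.0308) in limma. EIF2S1 fell by 0.56 ± 0.11 (0.0358), EIF4E by 0.36 ± 0.08 (0.0376) and EIF3A by 0.32 ± 0.06 (0.0308). EIF2S1 read 9.50, 8.59, 8.28 and 8.05 in DMSO and 9.29, 8.49, 8.11 and 8.11 with the inhibitor, so its course over time was larger than any difference between treatments. These 6 genes (3 and 3 of 44) compare with 7.74% of all genes called, 3.56% rising and 4.17% falling. In limma none was called without the 4 h arrays (2 rising and 5 falling at an unadjusted p under 0.05), without the 8 h arrays (7 and 7) or under median scaling (21 and 1), settings in which 0 of all genes passed. Background correction ended the call of EIF3G, with 9.99% of all genes called. Without the 12 h arrays only EIF5A kept its call, with 2.19% of all genes called.

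Larger effects stood among the regulators of the initiation factors. Of 19 measured genes of a list of regulators, 6 rose and 1 fell, with a median of 0.13, where 15.5% and 14.8% of all genes did. This list and those below were chosen with earlier results of these data known, so their counts are descriptions. MKNK2 and MKNK1 encode the MNK kinases, which phosphorylate eIF4E on the eIF4G scaffold. MKNK2 read 11.04, 11.10, 10.94 and 11.15 in DMSO and 12.41, 12.45, 12.00 and 12.01 with the inhibitor, and rose by 1.16 ± 0.10 (2.24-fold, adjusted p = 0.00124). MKNK1 read 7.63, 7.50, 7.70 and 7.66 in DMSO and 8.25, 8.40, 8.44 and 8.66 with the inhibitor, and rose by 0.82 ± 0.08 (1.76-fold, adjusted p = 0.00167). In both kinases every treated array lay above every DMSO array, as was so for 10.4% of all genes, and both calls held in all 14 alternatives.

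PPP1R15A, the stress-induced phosphatase subunit GADD34 that restores eIF2, read 9.90, 8.57, 7.92 and 7.99 in DMSO and 10.74, 9.75, 8.94 and 9.08 with the inhibitor. It ran downwards with time in both groups and rose by 1.03 ± 0.07 with treatment (2.05-fold, adjusted p = 0.000866); of 14 alternatives 1 ended the call, a model without time (adjusted p = 0.219). EIF4EBP2, a repressor that holds eIF4E away from eIF4G, read 8.04, 8.48, 8.81 and 8.81 in DMSO and 9.04, 9.22, 9.22 and 9.14 with the inhibitor. It rose by 0.62 ± 0.12 (1.54-fold, adjusted p = 0.0110), by 1.01 at 4 h and 0.33 at 24 h, and lost its call without the 8 h arrays (0.0623) and under median scaling. The remaining risers, EIF4EBP3 and the S6 kinase gene RPS6KB2, lost their calls in 6 and 8 of 14 alternatives, without the 8, 12 or 24 h arrays among them. EIF2AK2, the double-stranded RNA-sensing kinase PKR that phosphorylates eIF2, read 10.81, 10.60, 10.21 and 10.55 in DMSO and 10.55, 9.96, 9.79 and 10.05 with the inhibitor, and fell by 0.45 ± 0.08 (1.37-fold lower, adjusted p = 0.00799). Its groups overlapped through the 4 h treated array, and a model without time ended the call (adjusted p = 0.132). The other eIF2 kinases EIF2AK1, EIF2AK3 and EIF2AK4 did not pass (0.0025, 0.043 and 0.14), nor did MTOR (0.15) or the helicase inhibitor PDCD4 (-0.037).

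**Figure D5:**
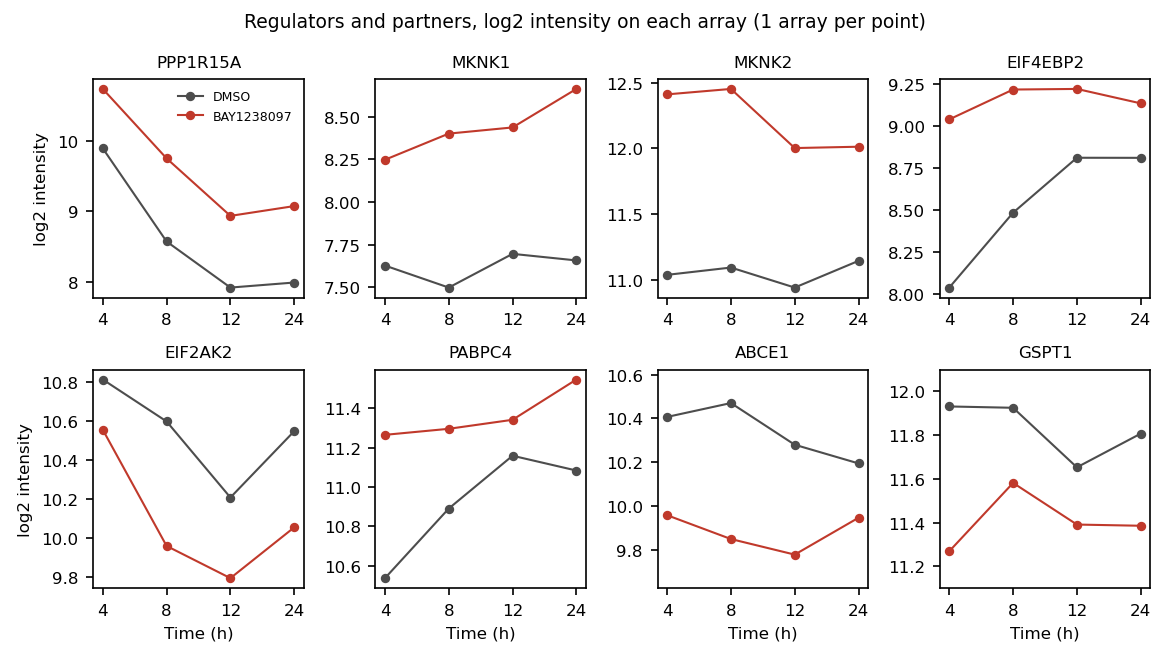
Normalised log2 intensity of 8 regulators and partners of the initiation factors on each array against time of exposure (4, 8, 12 and 24 h, evenly spaced), with DMSO in grey and BAY1238097 in red and 1 array per point; the axes differ between genes. The treated arrays lie above DMSO at each time for PPP1R15A, MKNK1, MKNK2, EIF4EBP2 and PABPC4, and below it for EIF2AK2, ABCE1 and GSPT1.

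Cofactors of initiation went both ways, with 2 of 11 higher and 3 lower (median 0.0048), against 15.5% and 14.8% of all genes. ABCE1, which splits ribosomes for a new round, read 10.41, 10.47, 10.28 and 10.19 in DMSO and 9.96, 9.85, 9.78 and 9.95 with the inhibitor, and fell by 0.46 ± 0.08 (adjusted p = 0.00754) with the call held in all 14 alternatives. The poly(A)-binding protein PABPC4 rose by 0.44 ± 0.09 and PAIP2, an inhibitor of poly(A)-binding protein, by 0.40 ± 0.08, while PAIP1, its coactivator, fell by 0.27 ± 0.07. PABPC4 and PAIP2 lost their calls without the 8 h arrays and under median scaling, PAIP2 also without the 12 h arrays, and PAIP1 without the 8, 12 or 24 h arrays. DENR, a reinitiation factor, fell by 0.21 ± 0.06, lost its call without any 1 time point and had an effect of 0.056 with the mean of its probes.

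Of 9 elongation and termination factors 2 rose and 3 fell (median -0.034), against 15.5% and 14.8% of all genes. The abundant elongation factors EEF1A1 and EEF2 did not pass (-0.034 and -0.026), whereas EEF1D, of the exchange complex, rose by 0.54 ± 0.08 (adjusted p = 0.00558). Of the release complex, GSPT1 fell by 0.42 ± 0.08 (adjusted p = 0.0108) and was called in all 14 alternatives. ETF1 fell by 0.41 ± 0.07 (adjusted p = 0.00898), and its call was lost without the 8 h or the 12 h arrays. EEF2K, the kinase that slows elongation, fell by 0.37 ± 0.06 and was at an adjusted p of 0.0501 without the 12 h arrays. GSPT2, the paralogue of GSPT1, rose by 0.21 ± 0.06 and lost its call without any 1 time point. Of 5 mitochondrial factors 0 rose and 2 fell, against the same 15.5% and 14.8%. GFM1 fell by 0.34 ± 0.09 and TSFM by 0.27 ± 0.06. Neither call was held without the 8 h or the 12 h arrays, nor GFM1's without 4 h or TSFM's without 24 h. In RNA from a whole culture, fewer cells expressing a gene and less RNA per cell cannot be told apart for any of these changes.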

How the data were processed

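RNA of DOHH2 cells was labelled as biotin cRNA and hybridised to 8 Illumina bead arrays, per the labels' protocols. The deposited intensity table holds 1 linear intensity for each of 47231 probes and, as its values show, is not normalised; 10 further columns without a name are empty (0 values). The authors' deposited value table holds log2 intensities that equal the quantile-normalised intensities within 0.00126. The scanner software and the steps behind it are not given in the sources used here.

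Log2 intensities were quantile-normalised without background correction. Detection p-values were not used here; a probe was above background on an array where under 5% of 429 olfactory receptor probes were as bright. Probe genes came from the platform annotation (30113 probes with 1 symbol, 8 with several, 17110 with none), matched by identifier to GRCh38.p14 for 30074 probes, with 0 symbols changed. A gene was its brightest probe by mean of the value table, kept with at least 4 of 8 arrays above background, which gave 10445 genes.

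Tests used limma 3.58.1 in R 4.3.3 (lmFit, eBayes), with Benjamini-Hochberg adjusted p over all genes and a threshold of 0.05, and figures matplotlib 3.10.9 in Python 3.11.15. Treatment was fitted with the time point as a factor; treatment by time as a product with centred log2 hours; the vehicle trend as a slope on log2 hours. The time label pairs the arrays. Deviations from the group means correlated between arrays of the same time with r = 0.59, 0.44, 0.68 and 0.48 at 4, 8, 12 and 24 h, and at most with r = 0.17, 0.17, 0.51 and 0.51 between different times, which at 24 h is above the same-time value. For single times differences past 0.32 on the log2 scale were counted. The fits were tested on simulated data. Alternatives were other scalings, background correction with the olfactory probes as controls, filters, probe choices, array weights, a variance trend and leaving out each time point; the fit across all probes was added after the data were seen.

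The members and gene lists were chosen with earlier results of these data known. Per-array values were given for called members (up to 4 a factor), the paralogue sets of eIF1, eIF4A, eIF4G, eIF4E and eIF5A, and members called by time, and for up to 4 called genes of each further list. EIF3I and EIF2S1 array values, EIF2AK2 and further called genes were chosen after their values were seen. Promoter sequences are RefSeq's.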

Additional observations from a re-analysis of the deposited data

Results flagged for a closer look

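Arrays standing apart from the other 3 of their group were sought for the 44 genes in both groups, 88 sets of 4 arrays in which chance gives about 1 in 20, or 4.4, and 5 were found. Each array is a different time point, not a repeat. EIF4A3 gave a pair of them: in DMSO the 4 h array was the lowest at 10.70, against 11.13 for the next, and with BAY1238097 the 24 h array was the lowest at 10.97, against 11.40. EIF3J with BAY1238097 was highest at 4 h (9.65, next 9.34). EIF2S3 with BAY1238097 was highest at 24 h (11.02, next 10.69), and EIF6 with BAY1238097 lowest at 24 h (9.51, next 9.79).

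The treatment difference of EIF4A3 changed over time by -0.34 per doubling, the only member past the threshold for a difference between time points.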

How the results depend on the processing

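The number of arrays and their signal over background limit these results: dim probes are compressed, and no single time is repeated. Counts of members called for treatment (3 higher, 5 lower) held within 1.5 times with the deposited values, without a filter, with the stricter filter, the mean of probes and a variance trend. They were 0 and 14 under median scaling, 1 and 3 after background correction with quantile normalization, and 1 and 8 with median scaling added. Over all 10445 genes the higher and lower calls in these settings were 806 and 2426, 1651 and 1590, and 1038 and 2205. Array weights gave 4 and 15, where 46.8% of all genes were called. With the pairing by time dropped (no replicate block) the counts were 0 and 2, where 14.2% of all genes were called. Leaving out 1 time point gave 0 to 3 higher and 0 to 12 lower, with 12.2% to 39.5% of all genes called. For treatment by time (0 and 1) the lower count was 3 under median scaling, 2 without a filter and 1 to 4 without 1 time point. There 2.38%, 1.93% and 1.5% to 12.5% of all genes were called. After background correction the lower count was 0 in limma, where 0 of all genes passed. At an unadjusted p under 0.05 there were 1 and 5 members in that setting. For the vehicle trend (3 and 3) the counts were 0 and 0 under median scaling and 2 and 5 after background correction. Of all genes 0 passed under median scaling and 9.99% after background correction. Without 1 time point the counts were 0 to 12 and 0 to 6. The 12 and 6 came without the 24 h arrays, where 20.7% of all genes were called. Median differences at 8, 12 and 24 h were -0.32, -0.31 and -0.34 under median scaling. No called member changed sign in these alternatives; DENR was at 0.056 with the mean of its probes. Among uncalled members 30 sign changes occurred, under 8 settings. The causes were not tested.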
